A study of Mus musculus with 16 samples.

Results

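The hypoxia-inducible factor (HIF) pathway was followed through 10 genes in B16F10 melanoma tumors: the factor subunits Hif1a, Epas1 and Arnt, the oxygen sensors Egln1 and Egln3, and the targets Vegfa, Car9, Bnip3, Ndrg1 and Adm. They were chosen by symbol from the 45777 genes listed, and all 10 had counts in every tumor, so all 10 were among the 16209 genes tested. RNA sequencing covered 16 tumors grown from B16F10, a melanoma line of C57BL/6 origin, under the skin of mice that were 6 weeks old at injection. The hosts were lean C57BL/6J mice (B6) or obese C57BL/6J-ob/ob mice, which lack leptin in every tissue, while the tumor cells injected were the same in both. Tumors were taken before therapy (B6_ctrl and ob_ob_ctrl) or after chemotherapy with etoposide (ETS), a topoisomerase II inhibitor (B6_ETS and ob_ob_ETS), with 4 tumors in each of these 4 groups. ETS was given 5 times at 20 mg/kg, starting at a tumor volume of about 100 mm3. As described, the untreated tumors were taken before therapy, so the drug cannot be told apart from the days of growth in between. An effect of ETS below is the difference between tumors taken after and before it. The labels do not tie each tumor to an animal of its own, so the p-values measure the spread between these tumors. The gene counts summed to between 47199949 and 61655287 per tumor.

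HIF is a dimer of an oxygen-labile α subunit, encoded by Hif1a or Epas1, and the stable partner encoded by Arnt. With oxygen, the prolyl hydroxylases encoded by Egln1 and Egln3 mark the α subunit for destruction, so the factor is regulated mainly as a protein. In hypoxia the dimer binds hypoxia response elements and raises genes for vessel growth, pH control, glycolysis and mitochondrial turnover, and it raises Egln1 and Egln3 as well. Solid tumors, melanomas included, hold poorly perfused regions where this pathway is active. The study asked whether tumors of obese hosts were more hypoxic than those of lean hosts.

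The core letters of the hypoxia response element, ACGTG or GCGTG on either strand, were sought in the 250 bases before each RefSeq start site (build GRCm38.p6). Windows were found for 8 of the 10 genes, 9 windows in all; Epas1 and Ndrg1 had none. All 8 genes had a match in a window, and 6 of them (Hif1a, Egln1, Egln3, Vegfa, Car9 and Bnip3) had ACGTG. Of 32841 windows of the same length across the genome, 38.6% held either core and 16.6% held ACGTG. The matches of Vegfa lay in the window of an internal start, within coding sequence of Vegfa in GENCODE vM21, and none lay in the window of its first start. The single Hif1a window is also that of an internal start, at position 73907867. A CACGTG in the windows of Hif1a and Bnip3 holds ACGTG on both strands and is also the E-box, which other factors bind. The stretches below belong to 4 of the genes that were higher in obese tumors before therapy, and the capitals mark every match to either core on either strand.
Bnip3, chr7:138909527-138909633, minus strand, bases -127 to -21 from the start site: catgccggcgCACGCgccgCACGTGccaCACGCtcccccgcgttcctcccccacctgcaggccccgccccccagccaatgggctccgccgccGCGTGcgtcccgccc
Egln1, chr8:124949308-124949390, minus strand, bases -136 to -54: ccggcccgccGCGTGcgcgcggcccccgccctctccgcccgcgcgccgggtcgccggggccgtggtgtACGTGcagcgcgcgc
Adm, chr7:110627557-110627617, plus strand, bases -100 to -40: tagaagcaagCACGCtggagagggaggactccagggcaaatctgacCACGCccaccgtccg
Car9, chr4:43506998-43507022, plus strand, bases -28 to -4: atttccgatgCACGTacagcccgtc
The Bnip3 stretch has 4 separate runs in capitals and the Car9 stretch a single one, close to the start site. In GENCODE vM21, which also gives longer transcripts, the Car9 stretch and the last 17 bases of the Egln1 stretch fall in the first exon. A match is a description of the letters and not a bound site.

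The genes lie at these positions in GRCm38.p6. Hif1a spans chr12:73901324-73947554, Epas1 chr17:86753864-86833410, Arnt chr3:95434367-95497240, Egln1 chr8:124908587-124949254, Egln3 chr12:54178981-54203874, Vegfa chr17:46016993-46032377, Car9 chr4:43507026-43513729, Bnip3 chr7:138890836-138909506, Ndrg1 chr15:66929318-66969641 and Adm chr7:110627657-110629820. Hif1a, Egln1, Bnip3 and Adm each overlap a predicted gene (Gm15283, Gm46060, Gm18258 and Gm28863), whose reads cannot be told apart from theirs without strand. The strand of Gm46060 was not found in the annotation used.

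Levels between genes were compared with the deposited TPM values, which are per length. In lean tumors before therapy the mean TPM ± SD (n = 4) was 314 ± 75.6 for Bnip3 and 232 ± 48.7 for Car9, followed by 129 ± 12.3 for Hif1a, 108 ± 18.3 for Egln1, 84.7 ± 18.5 for Vegfa and 72.4 ± 17.1 for Ndrg1. Arnt at 36.4 ± 4.41 and Adm at 35.4 ± 12.2 were lower, and Epas1 at 8.74 ± 2.32 and Egln3 at 4.44 ± 1.84 were the lowest. The ranges over the 4 tumors overlapped between Bnip3 and Car9, between Hif1a and Egln1, between Egln1 and Vegfa, between Vegfa and Ndrg1, between Arnt and Adm, and between Epas1 and Egln3. They did not overlap between Car9 and Hif1a, between Ndrg1 and Arnt, or between Adm and Epas1. In obese tumors before therapy Bnip3 (661 ± 124) and Car9 (384 ± 85.6) again led, and Vegfa came next at 243 ± 82.6 TPM.

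These were whole tumors, in which fewer cells of a type and less RNA per cell cannot be told apart. The pigment cell markers (8 of 8 genes detected in every tumor) summed to between 11264 and 27992 CPM in all tumors (CPM, counts scaled to a common library size, compares tumors and not genes). Obese tumors before therapy had 11621 to 15867 CPM of these markers, below all 4 lean tumors before therapy (19022 to 24147). Macrophage markers summed to 242 to 771 CPM in lean tumors before therapy, 38.2 to 186 in lean tumors after ETS, 37.8 to 173 in obese tumors before therapy and 180 to 696 in obese tumors after ETS. In the same order of groups, fibroblast markers summed to 545 to 2221, 103 to 616, 100.3 to 614 and 624 to 5727 CPM, and endothelial markers to 136 to 170, 102 to 135, 70.9 to 118 and 119 to 328 CPM. All 8 macrophage, 8 fibroblast and 9 endothelial markers were detected in every tumor. T cell markers summed to 16.5 to 31.0 CPM in lean tumors before therapy and to at most 1.45 CPM in the others, and each of the 6 was at 0 in some tumor. Adipocyte markers summed to 66.1 to 258 CPM in obese tumors after ETS and to at most 102 CPM elsewhere, with 5 of 6 at 0 in some tumor. Keratinocyte markers reached 149.8 CPM and skeletal muscle markers 319 CPM in single tumors, with 5 of 6 and 4 of 6 at 0 in some tumor. The part of these cell types in the HIF results was not tested.

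**Figure D1:**
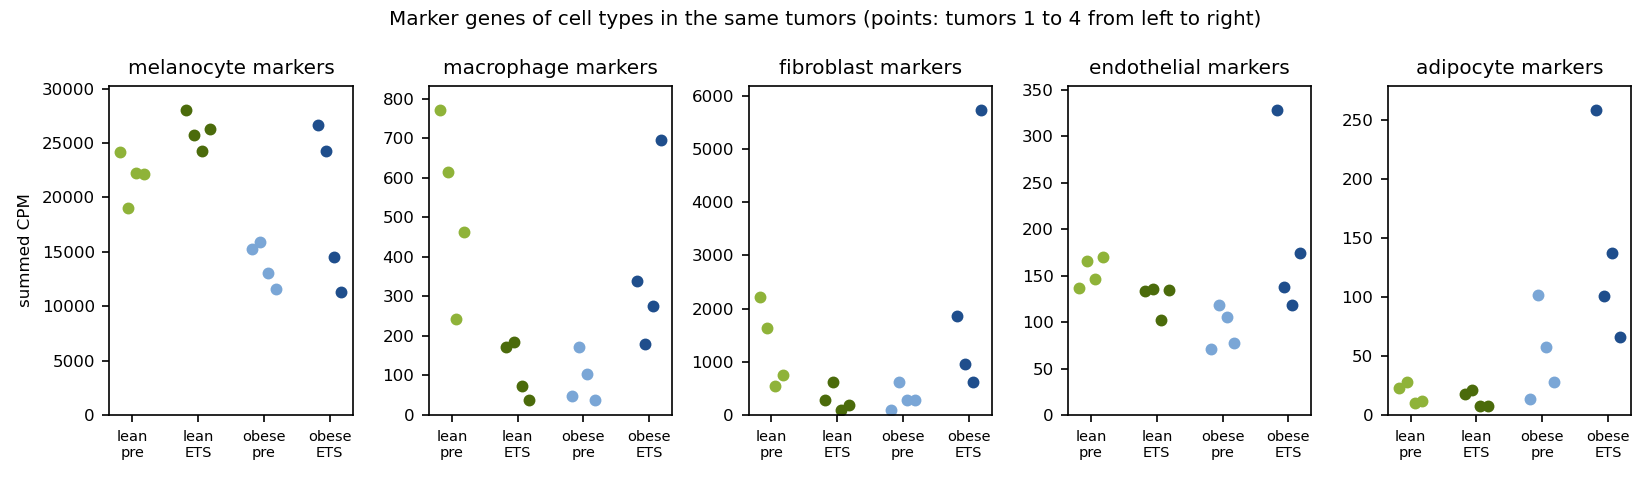
Summed CPM of the marker genes of 5 cell types (vertical axes, linear from 0) in each of the 16 tumors, by group (horizontal axis), each point a tumor. Macrophage and fibroblast markers were high in lean tumors before therapy and in obese tumors after ETS, and obese tumor 4 after ETS had the highest fibroblast sum, 5727 CPM.

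Obese tumor 4 after ETS stood apart from the other 3 of its group. It had the highest level of the group for 8 of the 10 genes and the lowest for 1, Hif1a. Its Ndrg1 level of 679 CPM compared with 191 CPM in the next tumor. Where a call or a direction of the 10 genes changed without it, the change is given below. Some counts without it are given too.

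**Figure D2:**
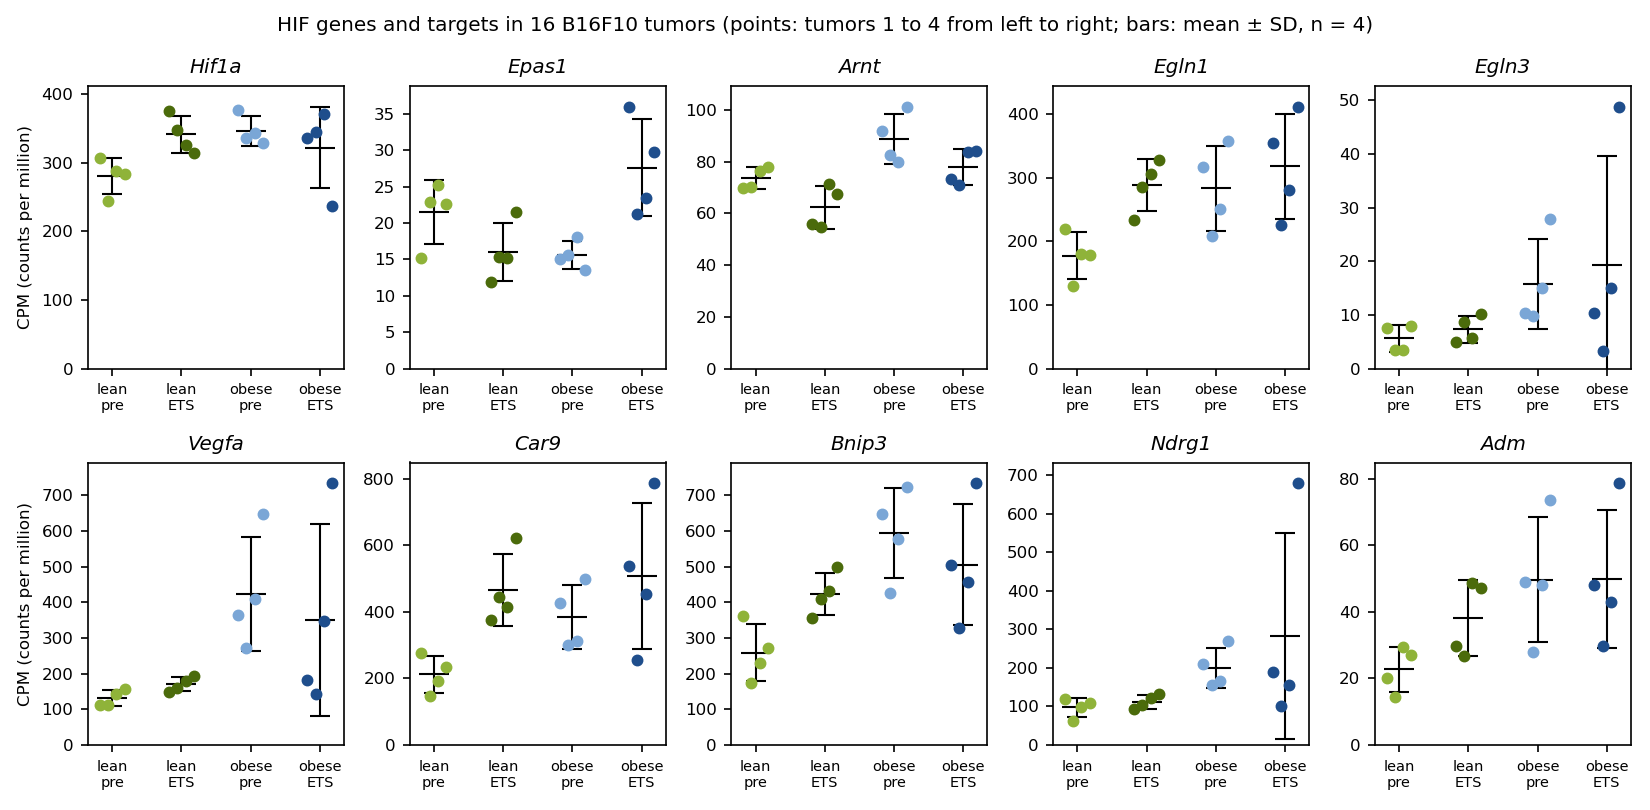
Level of each of the 10 genes in CPM (vertical axes, linear from 0) in the 4 groups (horizontal axis), each point a tumor and the bars the mean ± SD (n = 4). Vegfa, Bnip3, Car9 and Ndrg1 in obese tumors before therapy lie above all lean tumors before therapy, and obese tumor 4 after ETS is far above its group in Ndrg1, Egln3 and Vegfa.

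Before therapy, HIF target genes were higher in obese than in lean tumors. Vegfa, Bnip3, Adm, Car9 and the sensor Egln1 rose by 1.60 to 3.22 times, which is 5 of the 10 genes at an adjusted p under 0.05 (edgeR's quasi-likelihood test, adjusted over all genes tested), against 26.4% of all genes called in either direction and 13.5% called higher. For 7 of the 10 genes all 4 obese tumors lay above all 4 lean tumors, against 16% of all genes. Over the 10 genes the log2 fold changes had a median of 0.95, against 0.02 over all genes. In the same comparison the pigment cell, macrophage, endothelial and T cell marker sums of all obese tumors were below those of all lean tumors, and the fibroblast sums overlapped.

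Vegfa encodes the main growth factor for blood vessels. It was at 114, 113, 144 and 156 CPM in lean tumors 1 to 4 before therapy and at 365, 273, 410 and 646 CPM in obese tumors 1 to 4. Every obese tumor was well above every lean tumor, and the log2 fold change was 1.68 (SE 0.40, adjusted p = 0.00571).

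Bnip3 encodes a mitochondrial protein that promotes removal of mitochondria. Lean tumors had 361.5, 173, 229.9 and 272 CPM and obese tumors 649, 427, 579 and 723 CPM, again without overlap. The log2 fold change was 1.20 (SE 0.25, adjusted p = 0.00225). The calls of Vegfa and Bnip3 held under all 25 alternatives, with adjusted p from 0.000235 to 0.0235 for Vegfa and from 1.32e-05 to 0.00941 for Bnip3.

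Adm encodes adrenomedullin, a peptide that widens vessels. Its levels were 20.1, 14.3, 29.4 and 27.0 CPM in lean tumors and 49.1, 27.8, 48.1 and 73.7 CPM in obese tumors. Obese tumor 2 lay among the lean tumors, and the log2 fold change was 1.13 (SE 0.33, adjusted p = 0.0193). The call was lost without lean tumor 2 before therapy (log2 fold change 0.96, adjusted p = 0.0613) and without obese tumor 4 before therapy (0.88, adjusted p = 0.0773).

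Car9 encodes a carbonic anhydrase on the cell surface that is widely used as a hypoxia marker. It was at 276, 147, 191 and 236 CPM in lean tumors and at 428, 301, 313 and 499 CPM in obese tumors. All obese tumors were above all lean tumors, and the log2 fold change was 0.86 (SE 0.29, adjusted p = 0.0384). This call was the least firm of the 5: it was lost without any single tumor out of lean tumors 2, 3 and 4 before therapy, obese tumors 1 and 4 before therapy, lean tumors 1 and 2 after ETS, and obese tumor 1 after ETS. Without them the adjusted p lay between 0.0517 and 0.12 and the log2 fold change between 0.71 and 0.91, and with genes at 0 kept in the fit the adjusted p was 0.062. Car9 overlaps Arhgef39 and Tpm2 on the other strand. The libraries were made with a stranded kit, but whether the counting used the strand is not given in the sources used here.

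Egln1 encodes the main HIF prolyl hydroxylase. Lean tumors had 219.5, 129.6, 181 and 179 CPM and obese tumors 317, 208, 252 and 358.5 CPM, with obese tumor 2 below lean tumor 1. Its log2 fold change was 0.68 (SE 0.21, adjusted p = 0.0235). The call was lost without lean tumor 2 (0.56, adjusted p = 0.0752), lean tumor 4 (0.68, adjusted p = 0.051), obese tumor 1 (0.62, adjusted p = 0.0582) or obese tumor 4 before therapy (0.55, adjusted p = 0.0854).

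The other targets and sensors before therapy gave values in the same direction that did not pass the main test. Egln3, the hypoxia-induced prolyl hydroxylase, had 7.52, 3.44, 3.49 and 7.97 CPM in lean tumors and 10.3, 9.75, 15.02 and 27.8 CPM in obese tumors, a log2 fold change of 1.49 (SE 0.61, adjusted p = 0.0845). Ndrg1, a stress-response gene that hypoxia induces, had 119, 61.8, 99.9 and 109.7 CPM against 210.3, 155, 166 and 271 CPM, a log2 fold change of 1.04 (SE 0.44, adjusted p = 0.0951). Neither gene overlapped between the hosts. Obese tumor 4 after ETS is in neither group compared and enters through the scaling, the gene filter and the shared estimate of spread. Without it the adjusted p was 0.0281 for Egln3 and 0.00522 for Ndrg1. Leaving out obese tumor 2 after ETS gave Egln3 an adjusted p of 0.0371. With only these 2 groups in the fit the adjusted p was 0.0271 for Egln3 and 0.0108 for Ndrg1. Both were also called by limma-voom (0.0425 and 0.0123) and with the replicate block (0.0358 and 0.0324), and Egln3 by the exact test (0.0496). On log2(TPM + 1) neither was called (0.153 and 0.158).

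The factor subunits differed by less. Hif1a had 307, 244, 288 and 284.5 CPM in lean tumors and 378, 336, 344 and 329.6 CPM in obese tumors, with no overlap, a log2 fold change of 0.30 (SE 0.12) and an adjusted p of 0.0766. Arnt had 69.6, 70.2, 76.3 and 78.0 CPM against 91.7, 82.6, 79.96 and 101.1 CPM, also with no overlap, and a log2 fold change of 0.27 (SE 0.10, adjusted p = 0.0613). Both are near the threshold: Hif1a had an adjusted p of 0.0228 without obese tumor 4 after ETS, and Arnt one of 0.0499 without obese tumor 3 before therapy. Epas1 lay the other way, at 15.1, 22.9, 25.3 and 22.6 CPM in lean and 15.01, 15.6, 18.1 and 13.6 CPM in obese tumors. Its log2 fold change was -0.46 (SE 0.20, adjusted p = 0.104), and -0.60 with an adjusted p of 0.0354 without lean tumor 1 before therapy.

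The count of 5 genes depended on single tumors: it was 2 without lean tumor 2 or obese tumor 4 before therapy, 3 without lean tumor 4 or obese tumor 1 before therapy, and 8 without obese tumor 4 after ETS. On the log2(TPM + 1) scale, where 29.0% of the genes called were higher against 51.0% with counts, Vegfa and Bnip3 were called and the other 3 were not.

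**Figure D3:**
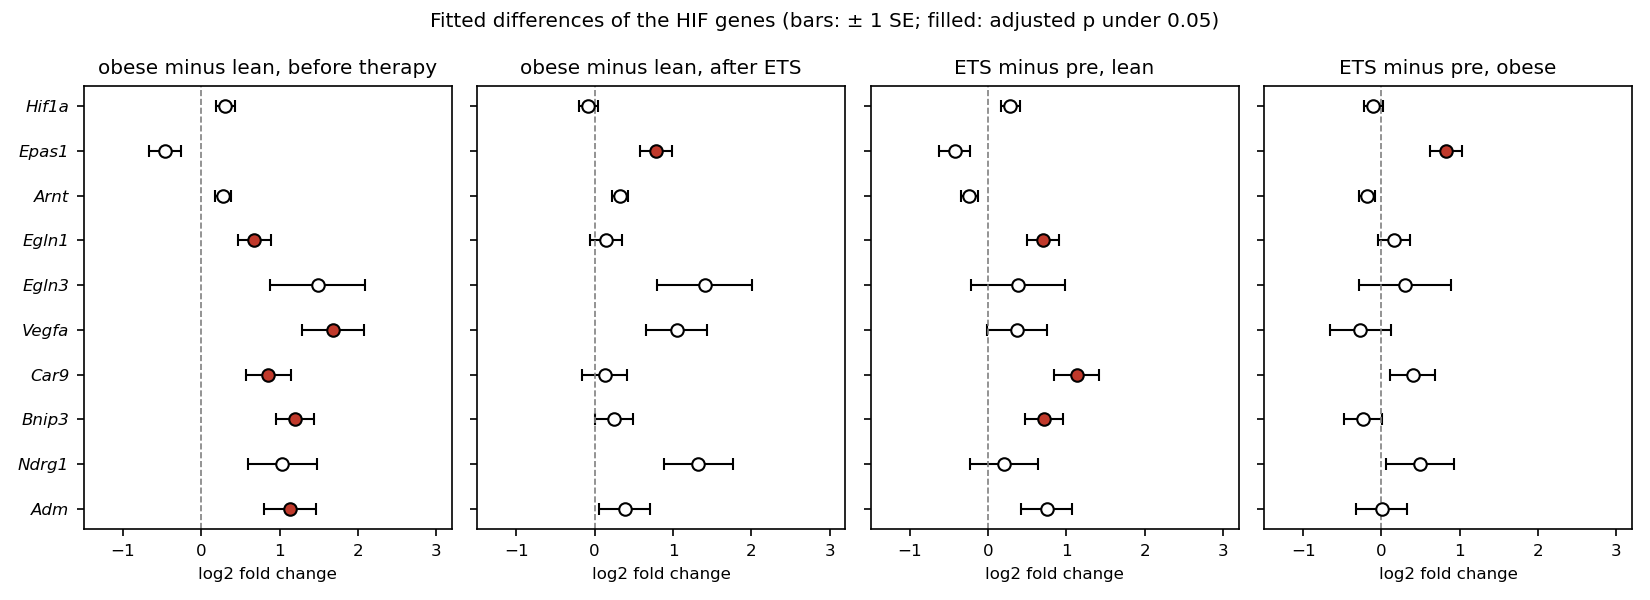
Log2 fold change (horizontal axes) of the 10 genes (vertical axis) in 4 comparisons, with bars of 1 SE and filled points at an adjusted p under 0.05. The filled points number 5 before therapy, 1 after ETS, 3 for ETS in lean tumors and 1 for ETS in obese tumors.

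After ETS, a single gene of the 10 was called between obese and lean tumors. Epas1 had 11.9, 15.3, 15.2 and 21.5 CPM in lean tumors and 36.0, 21.2, 23.4 and 29.8 CPM in obese tumors after ETS. Only lean tumor 4 reached into the obese range, and Epas1 was higher in obese tumors with a log2 fold change of 0.79 (SE 0.20, adjusted p = 0.0383). The fibroblast and adipocyte marker sums of all obese tumors were above those of all lean tumors in this comparison, and the macrophage and endothelial sums overlapped. This is 1 of 10 genes, against 5.58% of all genes called and 3.28% called higher. For none of the 10 did all obese tumors lie above all lean tumors, against 6.39% of all genes. The Epas1 call was lost without any single tumor out of lean tumor 4 before therapy, lean tumors 1, 2 and 3 after ETS, and obese tumors 1 and 4 after ETS, where the adjusted p lay between 0.0511 and 0.107. It was also lost when only these 2 groups entered the fit (adjusted p = 0.114) and when genes at 0 were kept in it (adjusted p = 0.0691). Of the other 9 genes, edgeR called 0, with 4 at an unadjusted p under 0.05, DESeq2 0 and the exact test 1, Ndrg1.

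The genes called higher in obese tumors before therapy had smaller estimates after ETS. The change from before to after is the same contrast as the difference between the ETS effects, given below. The main test did not call that contrast for any of these genes, with adjusted p from 0.0728 for Bnip3 to 0.464 for Vegfa. Their log2 fold changes were 1.05 for Vegfa (adjusted p = 0.113), 0.38 for Adm (adjusted p = 0.488), 0.25 for Bnip3 (adjusted p = 0.545), 0.14 for Egln1 (adjusted p = 0.707) and 0.13 for Car9 (adjusted p = 0.818). Ndrg1 had 1.32 (SE 0.44, adjusted p = 0.0816), Egln3 1.41 (SE 0.61, adjusted p = 0.164) and Arnt 0.32 (SE 0.10, adjusted p = 0.0737). Hif1a was at -0.08 (adjusted p = 0.705). With obese tumor 4 after ETS left out, Hif1a (0.05), Egln1 (-0.01) and Car9 (-0.16) changed sign and were not called. Much of the size in Vegfa, Ndrg1 and Egln3 came with obese tumor 4: without it their log2 fold changes were 0.41, 0.41 and 0.40. Without obese tumor 2, the lowest of the group in these 3 genes, Vegfa (1.31, adjusted p = 0.0398) and Ndrg1 (1.60, adjusted p = 0.0308) were called. The 10 genes had a median of 0.35 on the log2 scale, against 0.00 for all genes.

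In lean tumors, ETS was followed by higher levels of Car9, Egln1 and Bnip3. These are 3 of the 10 genes, a share below the 43.8% of all genes called in either direction and above the 21% called higher. For 3 of the 10, Hif1a, Egln1 and Car9, all 4 treated tumors lay above all 4 untreated ones, against 20.8% of all genes. Their log2 fold changes had a median of 0.38, against -0.01 over all genes. The macrophage marker sums of all treated lean tumors were below those of all untreated ones, as were the endothelial and T cell sums. The pigment cell sums were above them, and the fibroblast sums overlapped.

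Car9 went from 276, 147, 191 and 236 CPM before therapy to 377, 445, 416 and 622.5 CPM after ETS. Every treated tumor exceeded every untreated one, with a log2 fold change of 1.13 (SE 0.29, adjusted p = 0.00593), a call that held under all 25 alternatives. Egln1 went from 129.6 to 219.5 CPM before therapy to 234, 286, 306.5 and 328.5 CPM after ETS, also without overlap, with a log2 fold change of 0.70 (SE 0.21, adjusted p = 0.0125). Bnip3 reached 356.5, 411, 431 and 499.9 CPM after ETS, where treated tumor 1 lay just below untreated tumor 1. Its log2 fold change was 0.71 (SE 0.24, adjusted p = 0.0272). The Bnip3 call was lost without lean tumor 2 (0.56, adjusted p = 0.0849) or 3 before therapy (0.66, adjusted p = 0.0711) and without lean tumor 2 (0.72, adjusted p = 0.0503) or 4 after ETS (0.62, adjusted p = 0.0696).

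Hif1a reached 376, 349, 327 and 315 CPM in treated lean tumors, all above the untreated ones, with a log2 fold change of 0.28 (SE 0.12, adjusted p = 0.0691). Leaving out obese tumor 4 after ETS gave 0.0224. Hif1a was also called by limma-voom (adjusted p = 0.0141), with a block per replicate number (0.0473) and with only these 2 groups in the fit (0.0384). Adm had 29.9, 26.8, 48.8 and 47.1 CPM after ETS and a log2 fold change of 0.75 (SE 0.33, adjusted p = 0.0747). DESeq2 (adjusted p = 0.0417), limma-voom (adjusted p = 0.0185) and the replicate block (adjusted p = 0.00152) called Adm higher. Egln3 (0.38, adjusted p = 0.628), Vegfa (0.37, adjusted p = 0.455) and Ndrg1 (0.21, adjusted p = 0.725) were not called, and their groups overlapped.

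The 2 subunits Epas1 and Arnt had negative values in lean tumors. Epas1 had a log2 fold change of -0.43 (SE 0.20, adjusted p = 0.0985) and Arnt, at 56.03, 54.7, 71.3 and 67.5 CPM after ETS, one of -0.24 (SE 0.10, adjusted p = 0.0725). Epas1 was called lower without lean tumor 1 before therapy (-0.56, adjusted p = 0.0301) or lean tumor 4 after ETS (-0.60, adjusted p = 0.0268), and Arnt without lean tumor 3 after ETS (-0.31, adjusted p = 0.0319). With all tumors, limma-voom called Epas1 lower (adjusted p = 0.029) and the replicate block Arnt (adjusted p = 0.0231).

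The scale mattered in lean tumors. On log2(TPM + 1) the median of all genes shifted to -0.28, and 15.7% of the genes called were higher, against 48.0% with counts. Relative to that median, the 10 genes kept the direction they had with counts: Car9 was at 1.04, Bnip3 at 0.65, Egln1 at 0.61, Hif1a at 0.18, Arnt at -0.32 and Epas1 at -0.42. Without that correction Hif1a (-0.09), Vegfa (-0.01) and Ndrg1 (-0.14) were below 0 on this scale. Car9 (0.76, adjusted p = 0.0468) was called higher, Arnt (-0.60, adjusted p = 0.00532) and Epas1 (-0.70, adjusted p = 0.0129) were called lower, and Egln1 (adjusted p = 0.195) and Bnip3 (adjusted p = 0.222) were not called.

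In obese tumors, Epas1 rose after ETS. Of the other 9 genes edgeR called 0, with 0 at an unadjusted p under 0.05, and DESeq2, limma-voom and the exact test also called 0. Epas1, which encodes the α subunit known for its role in vessel and stromal cells, went from 15.01, 15.6, 18.1 and 13.6 CPM to 36.0, 21.2, 23.4 and 29.8 CPM. All treated tumors were above all untreated ones, with a log2 fold change of 0.83 (SE 0.20, adjusted p = 0.00514), and the call held under all 25 alternatives. Of all genes 40.2% were called and 21.2% were called higher in this comparison, and 16.4% had all 4 treated tumors above the untreated ones, as Epas1 did. The median over the 10 genes was 0.08 on the log2 scale, against 0.01 over all genes. In the same tumors the endothelial marker sums went from between 70.9 and 118 CPM to between 119 and 328 CPM, and the macrophage and fibroblast sums of all treated tumors were also above those of all untreated ones.

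The targets differed widely among treated obese tumors. Vegfa had 182, 144, 347 and 734 CPM, Ndrg1 191, 101.5, 157 and 679 CPM, and Egln3 10.4, 3.31, 14.96 and 48.8 CPM. In each of these genes tumor 4 was the highest and tumor 2 the lowest. Car9 had 539, 254, 455 and 786 CPM, with the same tumors at the extremes, and a log2 fold change of 0.40 (adjusted p = 0.278). Bnip3 had 505, 328, 456 and 734 CPM and a log2 fold change of -0.23 (adjusted p = 0.468). Without tumor 4, Vegfa was lower after ETS, with a log2 fold change of -0.91 (adjusted p = 0.0276) in place of -0.27 (adjusted p = 0.613), and Ndrg1 had -0.42 (adjusted p = 0.203) in place of 0.49 (adjusted p = 0.388). Hif1a was lowest in tumor 4 (336, 346, 372 and 237 CPM), and its log2 fold change was -0.10 (adjusted p = 0.519). Egln1 (0.16, adjusted p = 0.556), Egln3 (0.30, adjusted p = 0.722), Adm (0.00, adjusted p = 0.994) and Arnt (-0.19, adjusted p = 0.155) did not pass the test. With tumor 4 left out, Egln3 (-0.71), Adm (-0.30) and Hif1a (0.02) changed sign and were not called.

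The effect of ETS on Epas1 differed between the hosts. The difference, lean minus obese, was -1.25 on the log2 scale (SE 0.29, adjusted p = 0.00746), with values of -0.43 in lean and 0.83 in obese tumors. It held under all 23 alternatives, with adjusted p from 0.000277 to 0.019. Epas1 was the only one of the 10 genes called, against 16.4% of all genes in either direction, 6.35% with a larger value in lean tumors and 10.1% with a larger value in obese tumors. On log2(TPM + 1), where the median of all genes shifted to -0.16 and 9.24% of calls were positive against 38.7% with counts, the Epas1 difference was -1.33 (adjusted p = 0.00677). With counts, 8 of 8 fibroblast, 7 of 8 macrophage and 6 of 9 endothelial markers were also called with the larger value in obese tumors. Of the 8 pigment cell markers 0 were called. The part of these cell types in the Epas1 difference was not tested.

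Bnip3 had the next smallest adjusted p of the difference. Its ETS effect was 0.71 in lean and -0.23 in obese tumors, a difference of 0.95 (SE 0.34, adjusted p = 0.0728). The adjusted p was 0.0259 without lean tumor 1 before therapy, 0.0438 without obese tumor 2 before therapy and 0.025 without obese tumor 4 after ETS. The latter also gave Vegfa a difference of 1.26 (adjusted p = 0.0498) in place of 0.64 (adjusted p = 0.464). It turned the Ndrg1 difference from -0.29 (adjusted p = 0.795) to 0.61 (adjusted p = 0.27). The genes called of the 10 numbered 3 without obese tumor 4 after ETS and 2 without either of the other tumors. The differences of Car9 (0.73, adjusted p = 0.243), Adm (0.75, adjusted p = 0.298), Egln1 (0.54, adjusted p = 0.225) and Hif1a (0.39, adjusted p = 0.14) did not pass the test. For these 4 genes the ETS effects in the 2 hosts are therefore not shown to differ by the main test. Of them, limma-voom called Car9 (adjusted p = 0.0486) and the replicate block Adm (adjusted p = 0.028).

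Beyond these 10 genes, 84 other genes of the pathway were listed by role, and 79 of them could be tested. The lists, like the 10 genes, were chosen with earlier results of these data known, so their shares are descriptions. In obese against lean tumors before therapy, 36 were higher and 6 lower, 53.2% in all against the 26.4% of all genes. Targets outside glycolysis gave 20 higher and 1 lower of 35, glycolytic targets 11 higher and 2 lower of 19, subunits, regulators and coactivators 4 higher and 0 lower of 13, and VEGF and adrenomedullin ligands and receptors 1 higher and 3 lower of 12. The highest were Ankrd37, an ankyrin repeat gene induced by hypoxia (2.35, SE 0.40, adjusted p = 0.000569), with 5.41 to 6.69 CPM in lean and 18.5 to 44.6 CPM in obese tumors, and Selenbp1, a selenium-binding protein (1.88, SE 0.34, adjusted p = 0.000858). The lowest were Nos2, the inducible nitric oxide synthase (-2.83, SE 0.84, adjusted p = 0.0218), and Kdr, the main VEGF receptor of endothelial cells (-1.32, SE 0.21, adjusted p = 0.000418). Kdr had 19.1 to 32.2 CPM in lean and 7.82 to 13.6 CPM in obese tumors, so the receptor was lower where its ligand Vegfa was higher, and the endothelial marker list, which holds Kdr, was lower too. The Nos2 call was lost without obese tumor 1 (adjusted p = 0.0599) or 3 before therapy (adjusted p = 0.0666).

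**Figure D4:**
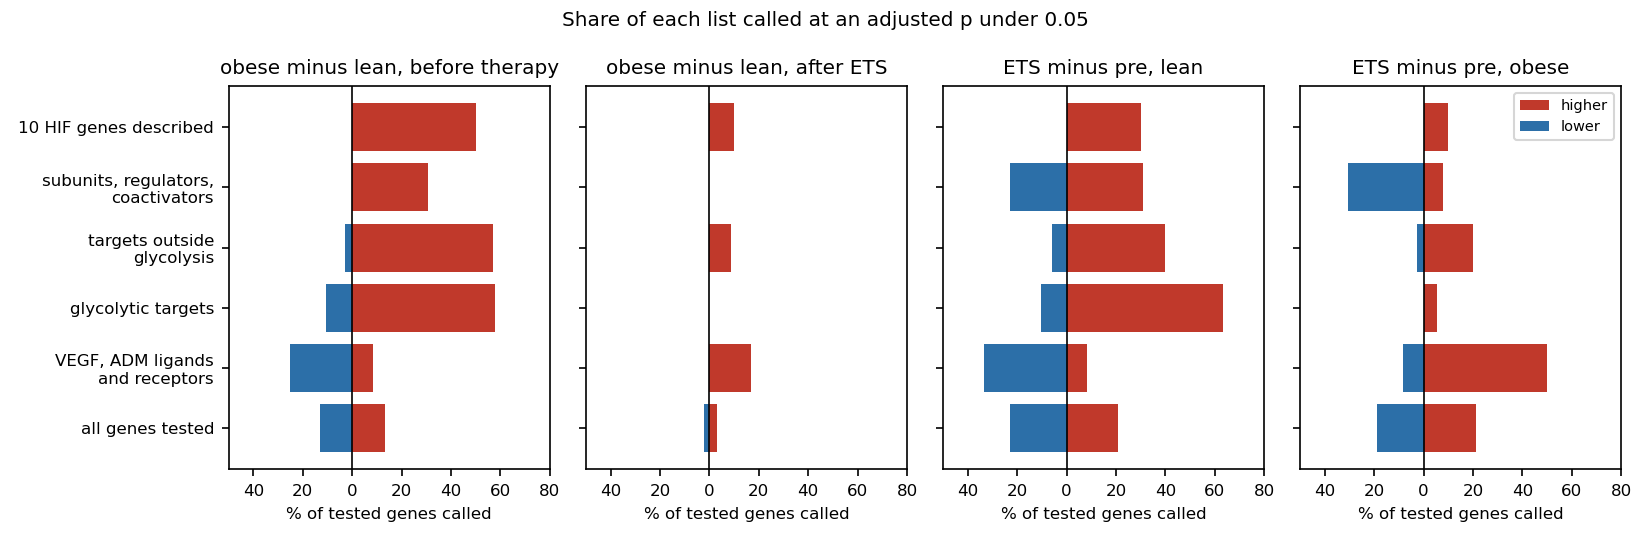
Share of tested genes (horizontal axes, percent, higher to the right and lower to the left of 0) called at an adjusted p under 0.05 in each list (vertical axis) for 4 comparisons. Before therapy 11 of 19 glycolytic targets were higher in obese tumors, and after ETS edgeR called 0 of them.

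After ETS in lean tumors, 31 of the 79 genes were higher and 11 lower, 53.2% against 43.8% of all genes. Glycolytic targets again moved mostly upward, with 12 higher and 2 lower of 19, and targets outside glycolysis gave 14 higher and 2 lower of 35. The highest were Car12, a second cell-surface carbonic anhydrase (1.76, SE 0.35, adjusted p = 0.00122), from 0.334 to 1.03 CPM up to 1.66 to 2.43 CPM, and Fam162a, a mitochondrial protein induced by hypoxia (1.13, SE 0.23, adjusted p = 0.00139), from 85.4 to 113 CPM up to 185 to 258 CPM. The lowest were Nos2 (-3.27, SE 0.86, adjusted p = 0.00714), from 11.8 to 21.7 CPM down to 1.13 to 2.72 CPM, and Calcrl, the receptor through which adrenomedullin acts (-1.52, SE 0.29, adjusted p = 0.000882). On log2(TPM + 1) only 6 were higher and 18 lower, on a scale whose shift over all genes is given above. With counts, leaving out obese tumor 4 after ETS gave 35 higher and 13 lower.

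In obese tumors after ETS, 15 genes of the pathway were higher and 6 lower, 26.6% against 40.2% of all genes. The balance of directions rested on obese tumor 4 after ETS: without it 8 were higher and 11 lower. It was 9 higher and 14 lower with limma-voom, whose weights count more variable tumors for less, and 8 and 10 on log2(TPM + 1). The weight of obese tumor 4 in limma-voom was not examined. Of the glycolytic targets 1 of 19 was called, while 6 of 12 VEGF and adrenomedullin ligands and receptors rose and 1 fell. This count was 4 and 1 without obese tumor 4 after ETS, 3 and 1 with limma-voom, and 3 and 2 on log2(TPM + 1). With genes at 0 kept, or with only these 2 groups in the fit, it was 4 and 0. The endothelial marker sums of all treated obese tumors were above those of all untreated ones in this comparison. The highest were Tmem45a (3.27, SE 0.98, adjusted p = 0.016) and Lox, the collagen cross-linking lysyl oxidase (3.06, SE 1.03, adjusted p = 0.0273). Both rested on few tumors. Without obese tumor 4 after ETS, Tmem45a had 1.98 (adjusted p = 0.0779) and Lox 2.12 (adjusted p = 0.0938). Tmem45a was also lost without obese tumor 3 before therapy (adjusted p = 0.0502), and Lox without obese tumors 1, 3 or 4 before therapy (adjusted p = 0.0582, 0.0598 and 0.0588). The lowest were Tfrc, the transferrin receptor (-1.12, SE 0.24, adjusted p = 0.00196), from 381 to 622 CPM down to 120.2 to 312 CPM, and Cul2, the scaffold of the ubiquitin ligase that takes up hydroxylated HIF (-0.52, SE 0.09, adjusted p = 0.000376). The count of 21 genes was 10 without obese tumor 3 before therapy.

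In the difference between the ETS effects, 21 of the 79 genes were called, 12 with the larger value in lean and 9 with the larger value in obese tumors, 26.6% against 16.4% of all genes. The highest were Ankrd37 (1.77, SE 0.54, adjusted p = 0.0368) and Ddit4, an inhibitor of mTORC1 (1.51, SE 0.41, adjusted p = 0.0197). Ddit4 had 63.7 to 76.0 CPM before and 97.0 to 136 CPM after ETS in lean tumors, and 141 to 292 CPM before and 70.9 to 227 CPM after ETS in obese tumors. The lowest were Nos2 (-5.41, SE 1.19, adjusted p = 0.00596) and Lox (-4.83, SE 1.42, adjusted p = 0.0297). In the same contrast the fibroblast markers had a median of -4.74 and the macrophage markers one of -4.53. The part of these cell types in Nos2 and Lox was not tested. Without obese tumor 4 after ETS, Nos2 was at -3.50 (adjusted p = 0.00608), Lox at -3.94 (adjusted p = 0.0619) and Ankrd37 at 2.36 (adjusted p = 0.00144). The Ankrd37 call was lost without any single tumor out of lean tumors 1 to 4 before therapy, lean tumors 2, 3 and 4 after ETS, obese tumors 3 and 4 before therapy and obese tumors 1 and 3 after ETS, with adjusted p from 0.0524 to 0.0809. It was also lost with genes at 0 kept (adjusted p = 0.0503), and on log2(TPM + 1) both Ankrd37 (adjusted p = 0.0616) and Ddit4 (adjusted p = 0.0649) were. Lox was lost without lean tumor 1 before therapy (-3.80, adjusted p = 0.0613), lean tumor 4 after ETS (adjusted p = 0.0586) and obese tumors 3 or 4 before therapy (adjusted p = 0.0535 and 0.0532), and moved to -5.81 (adjusted p = 0.0168) without lean tumor 2 after ETS. The count of 21 was 13 without lean tumor 4 after ETS and 12 without obese tumor 4 before therapy. Its split of 12 and 9 also varied: it was 23 and 5 without obese tumor 4 after ETS, 26 and 10 with limma-voom, and 1 and 9 on log2(TPM + 1).

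After ETS, obese tumors had 5 of the 79 genes higher than lean tumors and 0 lower, 6.33% against 5.58% of all genes. At an unadjusted p under 0.05 edgeR gave 22 higher and 2 lower, and DESeq2 called 15 higher and 0 lower. Of the 19 glycolytic targets edgeR called 0, with 3 higher at an unadjusted p under 0.05, and DESeq2 called 2. Among the 5 genes that edgeR called, those with a mean of at least 1 CPM were Angptl4, which inhibits lipoprotein lipase (3.28, SE 0.57, adjusted p = 0.00944), Pgf, a VEGF family ligand (1.75, SE 0.46, adjusted p = 0.0404), Calcrl (1.39, SE 0.29, adjusted p = 0.018) and Vldlr, a lipoprotein receptor (1.28, SE 0.36, adjusted p = 0.0486). Angptl4 had 3.17 to 9.59 CPM in lean and 22.03 to 89.3 CPM in obese tumors, in which the adipocyte marker sums were higher too (66.1 to 258 against 7.66 to 21.3 CPM). Its call did not depend on a single tumor, whereas Pgf was at 0.87 (adjusted p = 0.141) and Vldlr at 0.77 (adjusted p = 0.188) without obese tumor 4 after ETS. Pgf was also lost without any of lean tumors 1 to 4 after ETS (adjusted p from 0.0826 to 0.0904), Calcrl without lean tumor 4 after ETS (adjusted p = 0.0605), and Vldlr without any of the others except lean tumor 1 before therapy and obese tumor 2 after ETS (adjusted p from 0.0507 to 0.112). Pgf and Vldlr were also lost by limma-voom (adjusted p = 0.147 and 0.11), on log2(TPM + 1) (adjusted p = 0.0682 and 0.0761), with genes at 0 kept (adjusted p = 0.0689 and 0.0807) and with only these 2 groups in the fit (adjusted p = 0.121 and 0.135). The last of these also ended the call of Calcrl (adjusted p = 0.105), and filterByExpr that of Vldlr (adjusted p = 0.0532). The count of 5 lay between 2 and 3 without any of lean tumors 1 to 4 after ETS, obese tumors 1 and 4 after ETS or obese tumors 2 and 3 before therapy, and was 13 without obese tumor 2 after ETS. On log2(TPM + 1) the median of all genes shifted to 0.10 and 83.8% of calls were higher, against 58.7% with counts.

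Within the groups, the sensors and targets varied together from tumor to tumor. Pearson's r was taken over 16 deviations of log2 CPM from the group mean, as a description: the 16 tumors share a scaling and 1 tumor can carry several genes. Among the 7 sensors and targets (Egln1, Egln3, Vegfa, Car9, Bnip3, Ndrg1 and Adm) r ran from 0.62 to 0.95 over 21 pairs, with the highest values for Egln1 with Bnip3 (0.95), Car9 with Bnip3 (0.94) and Egln1 with Car9 (0.92). Arnt followed them with r between 0.46 and 0.78. Epas1 did so little, with r between 0.09 and 0.34 to the 8 genes other than Hif1a. All 9 pairs with Hif1a were negative, from -0.62 with Ndrg1 to -0.25 with Egln1, but this sign rested on obese tumor 4 after ETS, where Hif1a was low and the targets high. Over the other 15 tumors Hif1a had r from 0.01 with Adm to 0.31 with Bnip3 for the sensors and targets, and only its pairs with Epas1 (-0.55) and Arnt (-0.17) were negative. Over all 45 pairs, 26 had r over 0.5, and 24 did without obese tumor 4 after ETS. On the log2(TPM + 1) scale 27 did, 8 were negative and Hif1a with Arnt was 0.22. The share of pairs of other genes with r over 0.5 was not tested. The counts therefore do not show that varying together is particular to the HIF genes.

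**Figure D5:**
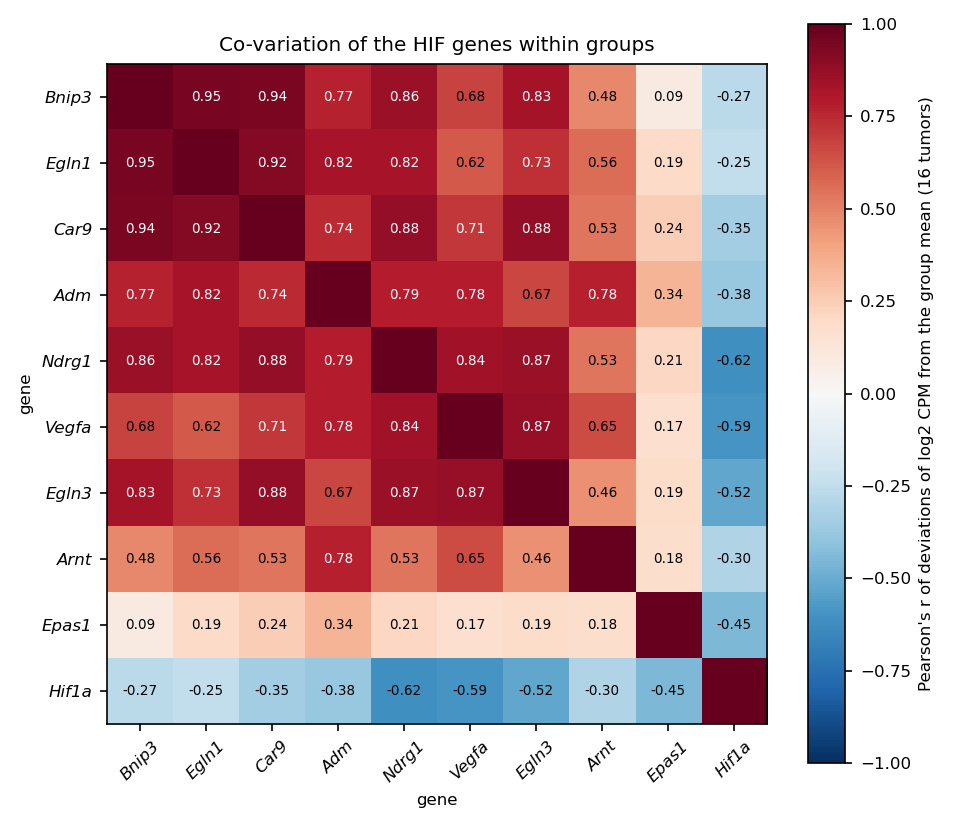
Pearson's r between the 10 genes (both axes) of the deviations of log2 CPM from the group mean over 16 tumors, coloured from -1 (blue) to 1 (red). The sensors and targets form a block of r from 0.62 to 0.95 (0.50 to 0.95 without obese tumor 4 after ETS), while Epas1 reaches at most 0.34 and Hif1a is negative with all, a sign that turned for 7 of its 9 pairs without that tumor.

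Outside the 10 genes, the closest pattern of the same deviations over the 16 tumors was sought among 13305 genes with a mean of at least 1 CPM. Vegfa was most like Ankrd37 (r = 0.98), a gene of the HIF target list. Bnip3 and Egln1 were both most like Prelid2 (r = 0.97 and 0.95). The list gene closest to Bnip3 was its paralog Bnip3l (0.96), which was at rank 3 of all genes, and the one closest to Egln1 was Mxi1 (0.95), at rank 2. Ndrg1 was most like Pvr (0.96), with the glucose transporter gene Slc2a1 at rank 3. Car9 was most like Tnfrsf9 (0.95), with the lactate exporter gene Slc16a3 at rank 4. Egln3 was most like Hyal1 (0.94), with Ankrd37 at rank 4. Adm was most like Alkbh5 (0.96), and its closest list gene, Higd1a, was at rank 30. For the subunits, list genes were farther off: Arnt was most like Epb41l2 (0.96) with Ep300 at rank 97, Epas1 most like Sez6l2 (0.92) with Ramp2 at rank 206, and Hif1a most like 4933431E20Rik (0.94) with Rbx1 at rank 932. Without obese tumor 4 after ETS, Epas1, Arnt, Egln1, Car9, Bnip3 and Adm had the same closest gene. The closest became Scrn3 for Hif1a (0.93), Stac2 for Egln3 (0.89), C430049B03Rik for Vegfa (0.95, with Ankrd37 next at 0.95) and Tnfrsf9 for Ndrg1 (0.93).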

How the data were processed

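RNA of 16 whole B16F10 tumors, 4 per group as the labels group them, was sequenced by the authors from stranded poly(A) libraries with paired reads of 101 bp. Per the submitters' processing notes and the study's methods, reads were trimmed with Trimmomatic, aligned to mm10 with HISAT2 2.1.0 and quantified with StringTie 2.1.3b. The deposited counts are read counts of genes as whole numbers, without normalization, and sum to between 47199949 and 61655287 per tumor. The TPM values deposited beside them served for levels between genes and for an alternative, and the deposited FPKM values were not used.

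As in the study, only genes detected in all tumors were kept (16209, with 29568 of 45777 left out). All 16 tumors entered a single fit of edgeR 4.0.16 (R 4.3.3) with TMM scaling and the quasi-likelihood test in place of the study's exact test. Adjustment was by Benjamini-Hochberg over all tested genes, and SE is the log2 fold change over the root of F. CPM uses TMM library sizes. The common biological coefficient of variation was 0.233. Alternatives were DESeq2's size factors, no exclusion, filterByExpr, DESeq2 1.42.0, limma-voom with a weight per tumor and limma 3.58.1 on log2(TPM + 1). Further alternatives were the exact test, a replicate block, fits of only the groups compared, and each tumor left out. The weights in limma-voom count more variable tumors for less. The correlations without obese tumor 4 after ETS were added after seeing the data.

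The 10 genes and the lists were chosen with earlier results of these data known. From the lists, the 2 highest and 2 lowest log2 fold changes per comparison were named among called genes with a mean of at least 1 CPM. For each of the 10 genes the closest pattern among other genes was named. Identifiers of 45679 genes matched the GRCm38.p6 table. Of the listed pathway genes 0 were unmatched, Ero1a by a synonym.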

Additional observations from a re-analysis of the deposited data

Results flagged for a closer look

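Ndrg1 in obese tumor 4 after ETS, at 679 CPM, lay far above the other 3 tumors of its group: the gap to the next tumor, at 191 CPM, was 0.846 of the group's range, above Dixon's critical value for 4 samples. This was 1 of 40 groups of 4 examined, and chance alone gives such a gap in about 1 of 20 groups. The same tumor had the highest fibroblast marker sum of all, 5727 CPM.

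Epas1 was picked out because the effect of ETS differed between the hosts by a test of the difference itself: lean minus obese was -1.25 on the log2 scale (SE 0.29, adjusted p = 0.00746).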

How the results depend on the processing

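Of the 11 calls among the 10 genes over the 5 comparisons, 5 held under every alternative (Vegfa and Bnip3 before therapy, Car9 for ETS in lean tumors, Epas1 for ETS in obese tumors and for the difference), 6 were lost under at least 1, and none reversed. Signs differed on log2(TPM + 1), in results not called, for Egln3 (-0.18) and Adm (-0.09) in obese tumors and Hif1a (0.05) between hosts after ETS. They also differed for Hif1a, Vegfa and Ndrg1 for ETS in lean tumors, as given above. Of the 39 results that were not called, 17 were called under at least 1 alternative. The cause of these changes was not tested.

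For the 10 genes in lean tumors after ETS, limma-voom called 6 and the replicate block 6, in place of 3. For the difference between effects, DESeq2 called 2, limma-voom 3 and the replicate block 3, in place of 1. Before therapy, limma-voom called 9, the replicate block 8, the fit of only the groups compared 8 and the TPM scale 2, in place of 5. After ETS, the exact test and the replicate block called 2 each, and no exclusion and the fit of only the groups compared called 0, in place of 1. For the other pathway genes, the TPM scale called 24 in place of 42 in lean tumors, and for the difference limma-voom called 36, the replicate block 33 and the TPM scale 10 in place of 21. After ETS, in place of 5, DESeq2 called 15, the exact test 14, the replicate block 11, filterByExpr and limma-voom 3 each, no exclusion 2 and the fit of only the groups compared 1. With 1 tumor left out, the 10 genes gave 2 to 4 calls in lean tumors, 1 to 2 in obese tumors, 1 to 3 for the difference, 2 to 8 before therapy and 0 to 3 after ETS. The other pathway genes gave 29 to 48, 10 to 20, 12 to 28, 31 to 43 and 2 to 13. Without obese tumor 4 after ETS, 24 pairs of the 10 genes had r over 0.5, in place of 26.

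The labels do not say whether tumors of the same replicate number share anything, and the values do not settle it. Of 24 same-numbered pairs of deviations 11 had r over 0.1, in a range from -0.112 to 0.452 over the 24. Of 16 tumors 7 correlated best with their own number. The replicate block, which allows for such pairing, changed several counts, as given above. With the replicate block Lox in obese tumors had an adjusted p of 0.0548. The lowest level of the 10 genes was 3.31 CPM, for Egln3. How much of the spread came from depth was not tested.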
